A study of Homo sapiens with 2 samples.

Results

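BMP (bone morphogenetic protein) signalling was examined in H9 cells, an established human embryonic stem cell line, through 10 genes. They were the ligands BMP2, BMP4 and BMP7, the receptors BMPR1A and BMPR2, the target genes ID2, ID3 and ID4, and the inhibitors BAMBI and SMAD6. They were read by the non-control probes whose RefSeq accession belonged to one of the 10 genes, which gave 16 of the 31104 named probes and 10 of the 22439 named genes. Expression had been measured on 2 single-colour arrays, 1 for each of the substates that the study distinguished in H9 cells grown on Matrigel in TeSR-E8 medium. Substate 1, at passage 35, was defined by colonies of the usual shape that stained strongly for the R-10G epitope, a keratan sulfate mark of pluripotent cells, and hardly for vimentin, a mesenchymal filament protein. Substate 2, at passage 50, was defined by colonies with gaps between their cells, weak R-10G staining and strong vimentin staining. How the cells of each array were separated from the other kind of colony is not given in the sources used here. Per the labels both groups were the same line on Matrigel in TeSR-E8, and no transgene or agent is named for either. Per the methods, passage 35 is also the passage at which cells first went onto Matrigel, so that time on this matrix may differ between the arrays. Since each substate had 1 array, passage, time on Matrigel and substate cannot be told apart, no test between the substates was possible, and no difference below has a replicate check.

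BMP ligands are secreted dimers that bring together type I receptors such as BMPR1A and type II receptors such as BMPR2. The type II receptor activates the type I receptor, which phosphorylates SMAD1, SMAD5 and SMAD9, and these enter the nucleus with SMAD4 and switch on genes such as those of the ID family. ID proteins are helix-loop-helix proteins without a DNA-binding domain that hold back differentiation factors. BAMBI, a receptor-like protein without a kinase domain, and SMAD6, an inhibitory SMAD, are induced by the pathway and dampen it. In human embryonic stem cells BMP signals are known to drive differentiation towards extraembryonic and mesodermal fates, and their absence is a condition for neural ectoderm to form.

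SMAD proteins are known to bind GC-rich elements and the SMAD box, so the sequence just before the start of the ID genes and of both inhibitors is shown as the promoters of the pathway's own readouts. The sequences are the 250 bases before the annotated start in RefSeq (GRCh38.p14), written 5′ to 3′ on the strand of the gene. Capitals mark 3 motifs, searched on both strands. The first was GGCGCC, which reads the same on either strand. The second was GGAGCC (on the other strand it reads GGCTCC). The remaining motif was GTCTAGAC, and no match overlapped another.
ID2 (chr2:8681806-8682055, plus strand): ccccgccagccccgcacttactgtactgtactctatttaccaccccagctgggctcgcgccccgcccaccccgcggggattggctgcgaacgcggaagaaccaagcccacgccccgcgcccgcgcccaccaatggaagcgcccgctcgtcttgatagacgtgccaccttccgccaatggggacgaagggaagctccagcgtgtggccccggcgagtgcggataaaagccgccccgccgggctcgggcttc
ID3 (chr1:23559502-23559751, minus strand): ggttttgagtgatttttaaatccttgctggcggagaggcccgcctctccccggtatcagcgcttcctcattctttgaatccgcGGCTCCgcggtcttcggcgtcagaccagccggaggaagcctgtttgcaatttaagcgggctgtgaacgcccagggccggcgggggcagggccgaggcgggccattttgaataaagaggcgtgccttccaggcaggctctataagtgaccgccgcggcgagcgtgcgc
ID4 (chr6:19837120-19837369, plus strand): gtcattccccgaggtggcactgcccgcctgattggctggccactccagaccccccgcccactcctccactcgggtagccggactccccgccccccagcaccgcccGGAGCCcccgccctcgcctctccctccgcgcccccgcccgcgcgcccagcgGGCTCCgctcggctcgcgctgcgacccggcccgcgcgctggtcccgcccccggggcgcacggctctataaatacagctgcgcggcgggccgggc
SMAD6 (chr15:66701986-66702235, plus strand): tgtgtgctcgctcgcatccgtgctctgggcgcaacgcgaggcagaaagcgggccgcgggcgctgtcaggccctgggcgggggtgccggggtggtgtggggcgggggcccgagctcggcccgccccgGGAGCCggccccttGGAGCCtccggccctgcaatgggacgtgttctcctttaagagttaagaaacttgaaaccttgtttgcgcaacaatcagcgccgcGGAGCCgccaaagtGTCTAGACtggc
BAMBI (chr10:28677271-28677520, plus strand): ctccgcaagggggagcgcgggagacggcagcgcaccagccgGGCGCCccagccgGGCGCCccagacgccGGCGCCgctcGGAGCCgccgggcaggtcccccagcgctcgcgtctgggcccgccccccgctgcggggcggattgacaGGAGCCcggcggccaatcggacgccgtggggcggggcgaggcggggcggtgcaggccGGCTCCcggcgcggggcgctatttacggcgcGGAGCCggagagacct

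Of the 10 genes 8 had an entry in the promoter table, with 10 promoters among them, as BMP4 had 3 annotated starts. BMP2 and BMP7 had none. The palindrome GTCTAGAC, a doubled SMAD box, lay 12 to 5 bases before the start of SMAD6 and in none of the other 9 promoters, and it was found in 0.182% of all 35116 promoters of this length. GGCGCC occurred in 3 of the 10 promoters, those of BMPR2 and BAMBI and 1 of BMP4, against 16.4% of all promoters. BAMBI held it 3 times. GGAGCC or GGCTCC occurred in 6 of the 10, against 30.6% of all promoters. ID3 held 1 copy, ID4 held 2, SMAD6 held 3 and BAMBI held 4, whereas the windows of ID2 and BMPR1A held none of these letters. The GC content of the 10 windows ran from 47.2% to 81.2%, with a median of 58.0% over all promoters, and its part in the matches was not tested. A match is a description of these letters and not a binding site.

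All 16 probes were well above background on both arrays, so none of the 10 genes was lost to a filter and no bound was needed. Over all non-control spots 57.4% passed this mark in substate 1 and 54.7% in substate 2, none was saturated, and both arrays shared a slide and a scan. Signals are given as scanner intensity with the error that the scanner software assigns to each spot, which was at most 19.0% of the signal for these probes. Each of the 16 probes was printed as 1 spot. Levels of different probes are not compared, because probes differ in how well they bind. A difference is the log2 signal in substate 2 minus that in substate 1, with the 75th percentile of each array set to 0, and its error combines those of both spots. That error holds for the spot alone, and the spread between cultures, extractions and labellings is unknown. In bulk RNA, fewer cells of a type and less RNA per cell cannot be told apart.

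None of the 10 genes differed by 2-fold or more, the rule of size used here, and 2.0% of the 16001 genes measured on both arrays did. Likewise 0 of the 16 probes passed the Z-score limit of the study (2 in either direction, over all probes), which 6.33% of all probes and 0.977% of the 29883 probes measured on both arrays passed. The Z-scores of the 16 probes lay between -1.24 and 0.41. Within this small range the 3 ID genes had differences above 0, and the 3 ligands, both receptors and both inhibitors had differences below 0. Those of ID2, BAMBI and SMAD6 were smaller than their spot error, though larger than the 0.069 from repeated spots of other probes. Of the 4 BMPR1A probes 1 was above 0. The median difference of the 10 genes was -0.13, against 0.08 over all genes measured. In all, 7 of the 10 were below 0, as were 40.2% of all genes measured, and 3 were above 0, as were 59.8% of all genes. The same 7 genes lay below the median of all genes. These shares are not matched for signal, and differences varied with it. Among probes within 0.5 in log2 signal the median difference was -0.07 for BMP2 and for BMPR2. It was -0.02 for BMP4, -0.01 for ID4, 0.15 for BAMBI and 0.17 for ID3. Only 9 of the 16 probes differed by more than their own spot error, and 1 probe, that of BMP4, by more than 2 times that error.

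**Figure D1:**
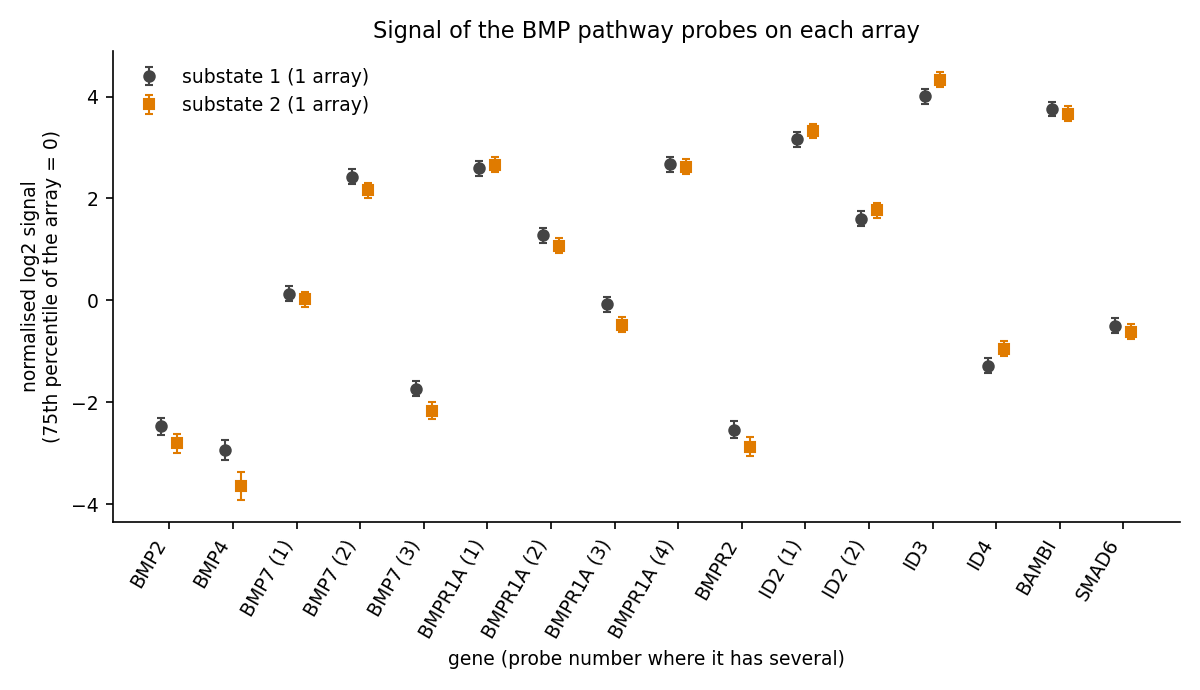
Normalised log2 signal (vertical axis, 75th percentile of each array set to 0) of the 16 probes of the 10 genes on the substate 1 array (circles) and the substate 2 array (squares); bars are the spot error of the scanner software and n = 1 array per substate. The pair of points of most probes lie close together, with the widest gap for BMP4 (-2.94 and -3.65).

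Among the ligands BMP4 had the largest difference of the 10 genes. BMP4, which patterns mesoderm and represses neural fate in the early embryo, had a signal of 40.9 ± 5.34 in substate 1 and 21.9 ± 4.16 in substate 2. The normalised difference was -0.71 ± 0.33, a level 1.64-fold lower in substate 2, and placed BMP4 at percentile 3.11 of all genes measured. This is a dim probe, and the SD of the difference over the 3978 probes of similar signal (within 0.5 on the log2 scale) was 0.50. Among those probes BMP4 was at percentile 7.52. With normexp its difference was -0.11. That setting changes 3 things together, the background correction, the use of median spot signals and an offset of 50, which is larger than either BMP4 signal and by itself draws log ratios of dim spots towards 0.

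BMP2, the closest relative of BMP4, read 56.3 ± 6.42 in substate 1 and 39.2 ± 5.17 in substate 2. Its difference was -0.33 ± 0.25. It was likewise dim, with an SD of 0.49 over probes of similar signal, and its difference became -0.10 with normexp. BMP7 was read by 3 probes. The first had signals of 343.7 ± 34.5 in substate 1 and 279.0 ± 28.2 in substate 2, a difference of -0.11. The second gave 1690 ± 169.1 and 1233 ± 123.4, a difference of -0.27. The third gave 94.3 ± 10.02 and 61.2 ± 7.10, a difference of -0.44. All 3 BMP7 probes were lower in substate 2, with a mean difference of -0.27 ± 0.16 (SD over 3 probes, which share the sample). With normexp this mean was -0.15.

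The receptors differed little. BMPR1A, the type I receptor, was read by 4 probes whose differences were 0.07, -0.21, -0.40 and -0.05, so that the probes of this gene did not share a direction. The first read 1894 ± 189.4 in substate 1 and 1748 ± 174.9 in substate 2. The second read 761.4 ± 76.2 and 579.2 ± 58.1, the third 297.3 ± 29.9 and 197.6 ± 20.1, and the fourth 1999 ± 199.9 and 1698 ± 169.8. The mean difference was -0.15 ± 0.21 (SD over 4 probes), less than the spread between the probes. BMPR2, the type II receptor, had a dim probe with 54.0 ± 6.22 in substate 1 and 37.6 ± 5.01 in substate 2. Its difference of -0.34 ± 0.25 became -0.03 with normexp.

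**Figure D2:**
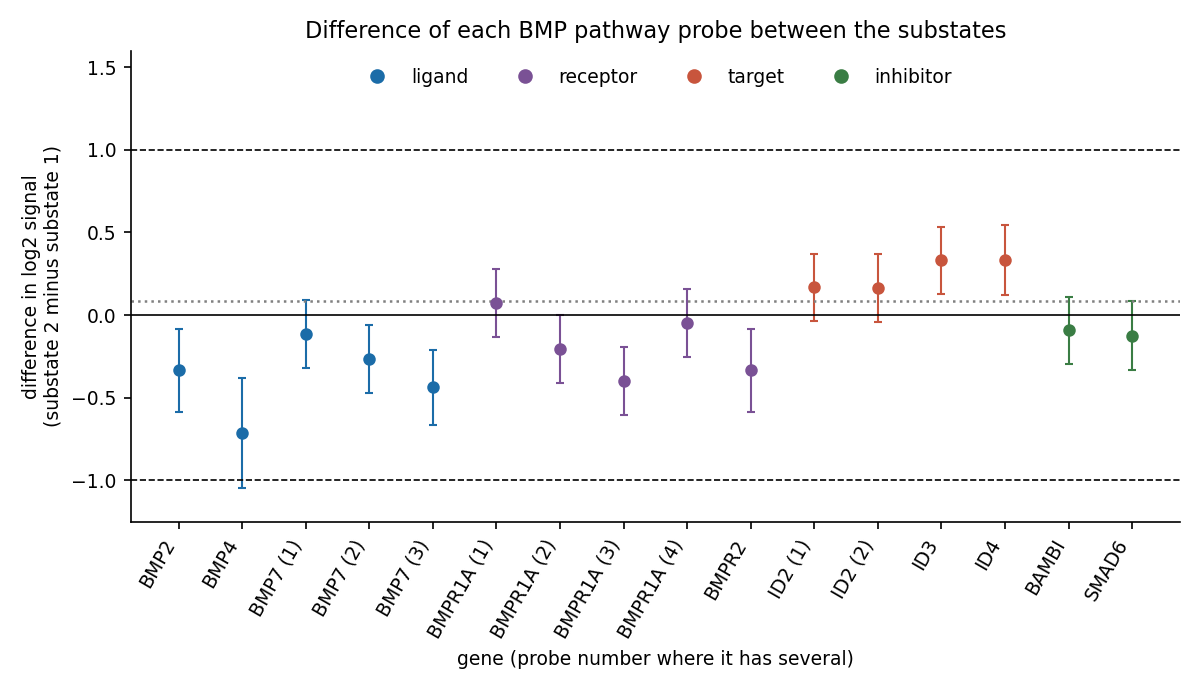
Difference in log2 signal (substate 2 minus substate 1) of each of the 16 probes, coloured by role; bars combine the spot errors of both arrays, dashed lines mark 2-fold and the dotted line the median of all genes measured (0.08). The 4 ID probes lie above 0, 11 of the other 12 probes are below it, and no probe reaches 2-fold.

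The ID genes, the readout of the pathway, were read by 4 probes, all of them higher in substate 2. ID3 had a signal of 5037 ± 503.7 in substate 1 and 5564 ± 556.4 in substate 2. Its normalised difference was 0.33 ± 0.20, and ID3 stood at percentile 80.4 of all genes measured. ID4 read 129.2 ± 13.3 in substate 1 and 143.0 ± 14.7 in substate 2, a difference of 0.33 ± 0.21 at percentile 80.8. Probes of similar signal to ID3 had differences with a median of 0.17 and an SD of 0.28, and those similar to ID4 a median of -0.01 and an SD of 0.44, so that both genes lay within 1 SD of the median of such probes. They stood at percentiles 80.7 and 83.6 of those probes. ID2 was read by 2 probes that lay close together. One gave 2803 ± 280.3 in substate 1 and 2766 ± 276.6 in substate 2, a difference of 0.17, and the other gave 953.5 ± 95.4 and 937.4 ± 93.8, a difference of 0.16. The raw ID2 signals were thus slightly lower in substate 2, and the sign of the normalised difference came from the scaling by the 75th percentile, which was 313.7 for substate 1 and 275.4 for substate 2. Relative to the median of all genes measured, ID2 differed by 0.08, against 0.25 for ID3 and 0.25 for ID4. The ID2 differences were smaller than their spot error of 0.20.

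Both inhibitors differed by less than their spot error. BAMBI read 4243 ± 424.3 in substate 1 and 3494 ± 349.5 in substate 2, a difference of -0.09 ± 0.20. SMAD6 read 222.5 ± 22.4 and 179.3 ± 18.2, a difference of -0.12 ± 0.21. In the promoters printed above BAMBI held 7 of the marked motifs and SMAD6 4, more than any ID gene. Sequence further from the start was not searched, so these counts hold for the printed bases alone. The BAMBI window also had the highest GC content of the 10 windows, 81.2%, and its part in this count was not tested.

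The direction of each gene was followed through 10 ways of processing, the one used above included. Each of the 10 genes kept the sign of its difference in all 10, and its side of the median of all genes too. These settings are not independent, since several of them, such as median centring, shift all genes by 1 constant or leave these probes as they were. The sizes changed most for the dim probes, as the plot of differences by way of processing shows. For BMP4 they ran from -0.71 to -0.11 and for BMPR2 from -0.34 to -0.03, whereas ID3 lay between 0.20 and 0.37 and ID2 between 0.08 and 0.21.

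**Figure D3:**
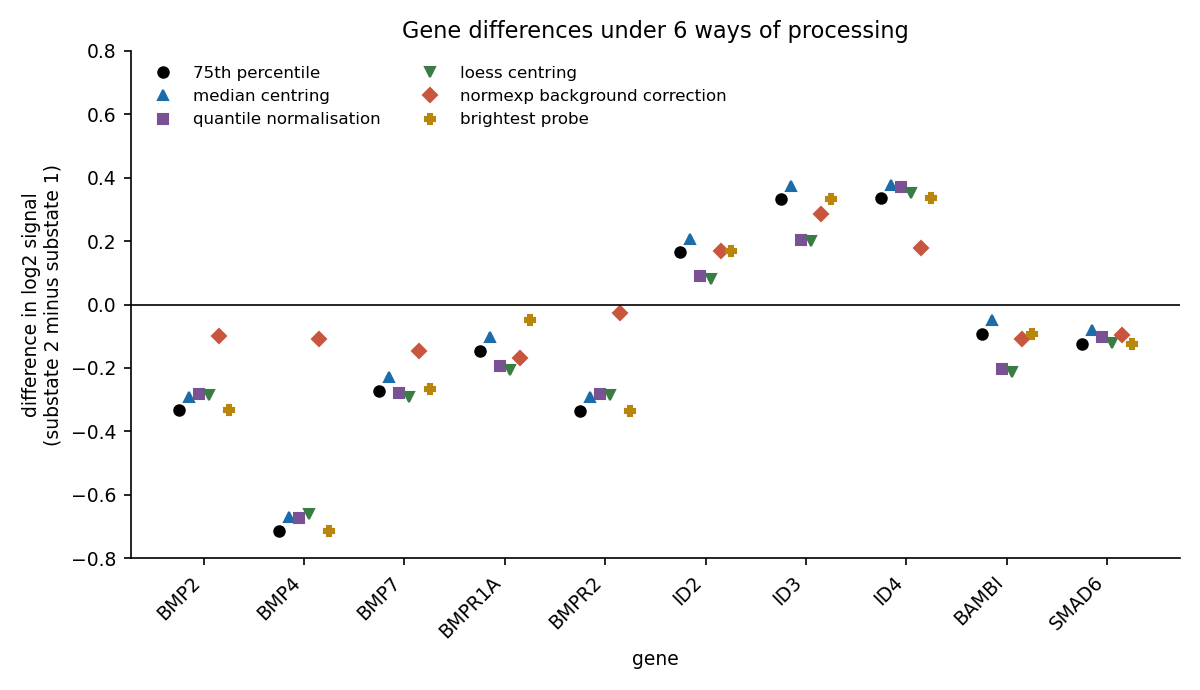
Difference in log2 signal (substate 2 minus substate 1) of the 10 genes under 6 ways of processing, each with its own symbol; n = 1 array per substate. The symbols of each gene stay on the same side of 0, and normexp brings BMP4 from -0.71 to -0.11.

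The rest of the pathway was covered by a list of 64 further genes, of which 62 were named on the array by 74 probes. NBL1 and CHRDL2 were not among the named probes. Of the 62 genes 35 were measured on both arrays, 5 on 1 array and 22 on neither. The 35 genes had a median difference of 0.06, close to the 0.08 over all genes measured, and 20 were above 0 and 15 below it. Of these 35 genes 2 were 2-fold or more higher in substate 2, where 0.931% of all genes measured were, and 1 was 2-fold or more lower, where 1.07% were.

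FST encodes follistatin, a secreted protein that binds activin and, less tightly, BMPs. Its signal was 645.8 ± 64.7 in substate 1 and 1444 ± 144.5 in substate 2, a difference of 1.35 ± 0.20, or 2.55-fold. It was 2-fold or more higher also with normexp, at 1.21. HEY1, a repressor that is a target of both Notch and BMP signals, read 89.7 ± 9.44 and 162.6 ± 16.5, a difference of 1.05 ± 0.21. GDF7, a ligand of the roof plate of the neural tube, was the lower one, with 56.1 ± 6.35 in substate 1 and 23.7 ± 3.96 in substate 2 and a difference of -1.05 ± 0.29. With normexp HEY1 differed by 0.74 and GDF7 by -0.27, both inside 2-fold.

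Of the 5 genes measured on 1 array, 3 passed 2-fold by a bound. In a bound the brighter signal was set against the lowest level that the dim array could tell from background. A dim signal above that level was used itself, which gives the plain difference and was not the case for these 5 genes. In all, 14.6% of the 964 genes measured on 1 array only passed 2-fold in this way. ATOH8, a helix-loop-helix factor induced by BMP signals, read 47.1 ± 6.15 in substate 2, was not well above background in substate 1, and was at least 3.71-fold higher in substate 2. BMP1, a protease that cleaves the antagonist chordin, was at least 2.28-fold higher in substate 2, with 28.9 ± 4.88 there. The ligand BMP5 read 35.7 ± 4.90 in substate 1 and was at least 2.09-fold lower in substate 2. GATA2, a transcription factor of blood and trophoblast, could be told from background in substate 1 alone, with a bound of at least 1.04-fold lower in substate 2. For GREM1, a secreted BMP antagonist, it was substate 2 alone, with a bound of at least 1.38-fold higher there.

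By role, 3 of the 4 further ligands measured were below 0, as were 40.2% of all genes. GDF5 had the highest difference (0.40) and GDF7 the lowest, with -0.55 for BMP6 and -0.24 for BMP8B. The BMP8B value rests on 1 of its 2 probes, as the other was well above background on neither array. The further receptors and co-receptors had a median of -0.09 over 8 genes, from -0.46 for ACVR1, a type I receptor with 2 probes, to 0.27 for ENG, a co-receptor of endothelial cells. The 4 signal-carrying SMADs were above 0, as were 59.8% of all genes, with SMAD1 at 0.40, SMAD9 at 0.38, SMAD4 at 0.08 and SMAD5 at 0.02. The 2 SMAD4 probes did not share a direction, with -0.05 for the brighter and 0.22 for the other. SMAD5 differed by less than its spot error of 0.20. Only SMAD1 and SMAD9 were above the median of all genes. Among the extracellular antagonists and modulators FST was highest and NOG lowest. NOG, which encodes noggin, a secreted protein that traps BMP4, read 48.1 ± 6.11 in substate 1 and 23.7 ± 5.05 in substate 2, a difference of -0.83 ± 0.36 on a dim probe. The further intracellular inhibitors ran from -0.27 for PPM1A, a phosphatase of SMAD proteins, to 0.33 for SKI, a repressor bound to SMAD proteins. Of these 7 genes 5 were above 0, as were 59.8% of all genes, and the median of the 7 was 0.17. BAMBI and SMAD6 were below 0, each by less than its spot error. SMAD7, the other inhibitory SMAD, differed by 0.29.

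ID1, the remaining ID gene, was on the same side as the 3 described, with 2444 ± 244.4 in substate 1 and 2980 ± 298.0 in substate 2 and a difference of 0.47 ± 0.20. Of the other targets only MSX1 (-0.61) and HEY1 were measured on both arrays. The remaining 9, GATA3, TFAP2A, HAND1, CDX2, ISL1, MSX2, DLX3, DLX5 and TBX3, were well above background on neither array. They include genes that BMP4 induces when embryonic stem cells form amnion, trophoblast or mesoderm.

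**Figure D4:**
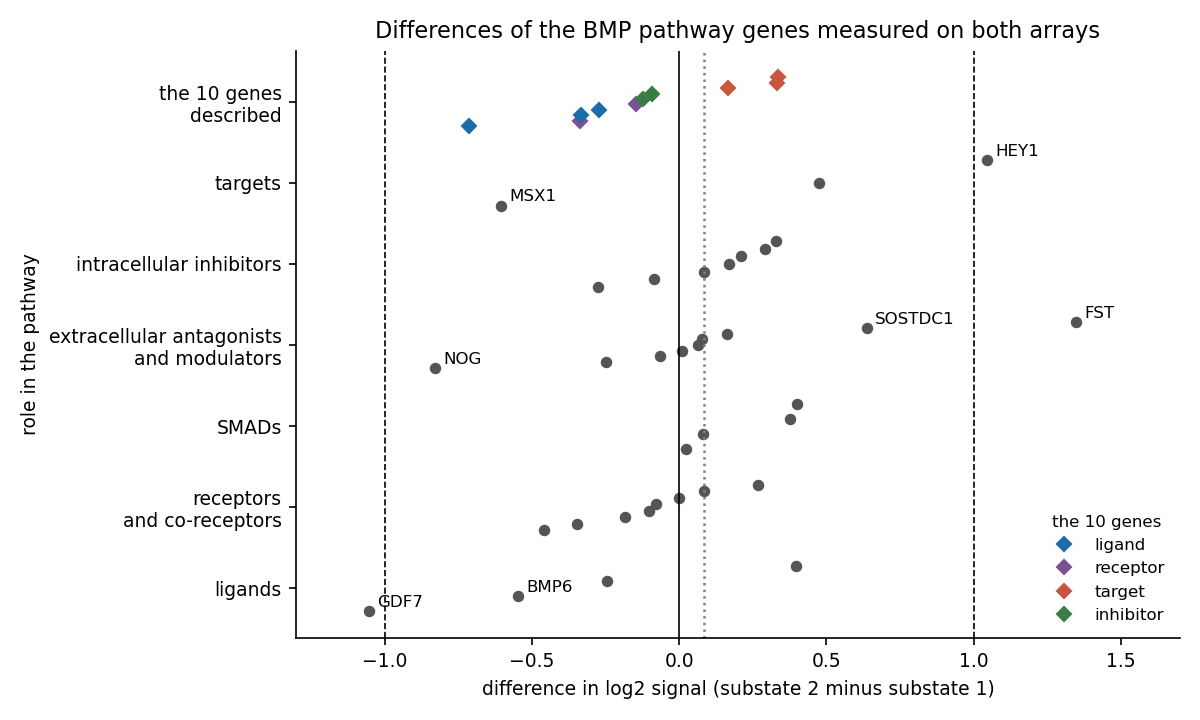
Difference in log2 signal (substate 2 minus substate 1, horizontal axis) of the 35 further pathway genes measured on both arrays, by role, with the 10 genes described as diamonds coloured by role; dashed lines mark 2-fold and the dotted line the median of all genes (0.08). FST and HEY1 lie past 2-fold on the right and GDF7 on the left, while all 10 genes lie inside.

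Markers of the cells were set beside these values. The pluripotency genes POU5F1 (0.27), NANOG (0.42), SOX2 (0.26), LIN28A (0.18), DPPA4 (0.07), SALL4 (-0.03) and PODXL (-0.35) were measured on both arrays and inside 2-fold, so the defining genes of the labelled cell type were present in both substates. TDGF1 was not among the named probes. The markers that tell the substates apart differed by far more than the BMP genes, with 2.53 for VIM, 2.54 for ZEB1, -1.47 for CDH1 and a bound of at least 5.39-fold higher for ZEB2. Of 11 markers of amnion, trophoblast and surface ectoderm 5 were measured, and 6, TFAP2A, GATA3, ISL1, HAND1, CDX2 and TP63, were well above background on neither array. GABRP was 2-fold or more lower in substate 2 (-1.53), and KRT7 (0.16), IGFBP3 (0.05), HAPLN1 (-0.32) and VTCN1 (-0.37) were inside. Of 6 mesoderm markers none was measured on both arrays. MESP1 passed in substate 2 alone, with a difference of 1.14 ± 0.42, and TBX6 in substate 1 alone, with -0.44 ± 0.47. Both values are plain differences from a signal that was not well above background, and not bounds. That of TBX6 was smaller than its spot error. Of 7 neural progenitor markers LHX2 was higher by 2.32, NES differed by 0.38, PAX6 and ZIC1 passed on neither array, and POU3F2, HES5 and SOX1 passed in substate 2 alone. There HES5 was at least 1.90-fold higher and SOX1 at least 1.71-fold. POU3F2 was 13.3-fold higher in substate 2. That value is a plain difference from a substate 1 signal that was not well above background, and not a bound. Of 6 neural crest markers 4 were measured, from 0.02 for SNAI2 to 0.45 for PAX7. The part of the neural progenitor markers in the values of the BMP genes was not tested.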

How the data were processed

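Messenger RNA of 2 samples was measured on 1 Agilent array each. The authors deposited the scanner output, in which every spot has an intensity that, per the file headers, Agilent Feature Extraction 11.5.1.1 corrected for background. They also deposited a matrix of log2 values shifted by the 75th percentile, which matched the values computed here within 0.01 for 100% of the 58201 probes after 1 constant per array. Outlier spots were dropped unless every spot of a probe was an outlier, so that probes printed as 1 spot were always kept. Intensities were floored at 1, which changed no spot, and the 75th percentile of each array was subtracted on the log2 scale. Probes were named through RefSeq accessions (GRCh38.p14 names; the design was annotated on hg19). A gene value averaged those of its probes that passed the background mark on both arrays. With 1 array per group nothing was tested, and a call means 2-fold or more, or a Z-score past 2. Values of probes measured on 1 array are bounds, or plain differences where the dim signal exceeded the lowest level told from background. Precision is limited by having 2 arrays.

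The 10 genes, the 64 further pathway genes and the markers were chosen with earlier results of these data known. Named were all 10 genes, in each role the largest difference either way, and every listed gene with a probe past 2-fold. Alternatives were other scalings, normexp correction (offset 50, limma 3.58.1, on median signals, as the files hold no mean signals), outliers, floor, probe choice, filter and Z-score. The scaling step alone was tested on simulated data. Its differences were larger than those of the 10 genes and its noise lower than their spot errors, so it does not bear on differences of their size. Python 3.11.15 and pandas 2.3.3 were used.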

Additional observations from a re-analysis of the deposited data

How the results depend on the processing

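The count of BMP genes past 2-fold was 0 under each of the 9 alternatives run for it. Keeping outlier spots, removing the floor and admitting probes that passed on 1 array left the values of the 10 genes as they were. These alternatives could thus not change the count. No BMP probe passed the Z-score limits except with an SD from the median absolute deviation, where 1 did, that of BMP4. The median difference of the 10 genes was -0.21 after loess centring in place of -0.13. It then lay between BAMBI and BMPR1A, both at -0.21 there, against -0.09 and -0.15 in the main setting. Loess centring subtracts the trend of the difference over signal, and why each gene moved was not tested further. The count of further pathway genes past 2-fold went from 3 to 1 with normexp, with FST as the gene past the limit. It went to 7 when probes that passed on 1 array alone entered at their values, since that setting adds ATOH8, BMP1, BMP5 and GATA2. Naming probes by a gene symbol column was not run, as the scanner files used here have no such column. No paired analysis was possible because there were no replicates to pair. Leaving out an array was likewise not possible. Signal over background limits BMP2, BMP4 and BMPR2, whose spot errors are the largest of the 10 genes.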
